A study of Mus musculus with 17 samples.

Results

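The transcriptome of the non-infarcted left ventricle (LV) was described from 8 MACE-Seq libraries of sham-operated mice, out of 17 heart libraries in the series. The members were chosen by their label, LV tissue of sham mice at day 5, with earlier results of these data known. All 8 animals were young adult male C57BL/6J wild-type mice, a common inbred laboratory strain, which went through the infarct operation except that the coronary artery (LAD) was not tied off. All had therefore received the anaesthesia, analgesia and surgery of the study, so the libraries describe an operated heart and not one from an untouched mouse. After recovery the study also made haemodynamic measurements in its mice, and cervical dislocation then preceded the removal of organs. Each library came from 1 animal. The study used this tissue as the control for an infarct zone, and the other 9 heart libraries entered no value here.

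MACE-Seq sequences 1 tag near the 3′ end of each polyadenylated transcript, so a count does not grow with transcript length. The kit adds molecular identifiers meant for the removal of PCR copies, and whether that step was run before the deposited counts is not given in the sources used here. Counting error below takes counts as independent and would be too small if PCR copies remain. Shares below are percentages of a library's counts. Levels are given as CPM, the usual counts-per-million unit, after trimmed mean of M-values (TMM) scaling, and ± is the SD over the 8 libraries unless stated. The libraries held 1820809 (sham 3) to 4257919 counts (sham 7), with a median of 2586348. Between 16379 and 18474 of 31647 features had a count, and between 16093 and 16503 after thinning to the smallest library. Log2 levels of any pair of libraries correlated across genes at r = 0.94 to 0.97, where genes are not independent replicates. Every pair differed by more than counting error, by 2.61 to 28.3 times the variance of sampling, so no library was a copy of another. The labels give no batch or date.

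Some libraries stood apart from the rest. On the first principal component of log2 levels (25.1% of the variance) sham 1, sham 2 and sham 3 scored -12.9, -23.1 and -26.7, and the other 5 scored 9.24 to 16.4. On the second (21.3%) sham 5 (-26.5) and sham 7 (-18.6) lay opposite to sham 8 (25.7). Sham 1, sham 2 and sham 3 are consecutive in the numbering of the sample titles, and no other label corresponds to either division. Many results below therefore name the libraries that were high or low.

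The adult left ventricle pumps without rest and covers nearly all of its ATP need by oxidation in mitochondria, which fill a large part of each cardiomyocyte. The 13 proteins encoded by mitochondrial DNA join nuclear-encoded subunits in complexes I, III, IV and V of the respiratory chain. The sarcomere, built of thick myosin filaments, thin actin filaments and the Z-discs that anchor them, turns that ATP into force, and the sarcoplasmic reticulum releases and takes back the calcium that starts and ends each beat. Cardiomyocytes hold most of the RNA mass of this tissue, while endothelial cells, fibroblasts, mural cells and macrophages are numerous but small. A bulk library averages over all of them.

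The gene with the most counts was mt-Co1, which encodes the catalytic subunit of cytochrome c oxidase (complex IV), at 4.26% ± 0.196 of the counts, and the third was Gm29216, a nuclear pseudogene of it, at 3.96% ± 0.216. The ends of these transcripts are shown because 3′ tags fall there. The first line holds the last 90 bases of the mt-Co1 transcript, at chrM:6783-6872 on the plus strand of GRCm38. The second holds the matching bases of Gm29216, at chr1:24615706-24615795 on the minus strand. The third holds those of a more distant copy, Gm13340, at chr2:22588103-22588192 on the minus strand. Capitals mark the bases that differ from mt-Co1.
mt-Co1: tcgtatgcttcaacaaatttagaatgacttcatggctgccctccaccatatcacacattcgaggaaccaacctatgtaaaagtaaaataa
Gm29216: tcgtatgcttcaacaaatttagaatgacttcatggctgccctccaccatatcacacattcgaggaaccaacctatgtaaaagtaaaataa
Gm13340: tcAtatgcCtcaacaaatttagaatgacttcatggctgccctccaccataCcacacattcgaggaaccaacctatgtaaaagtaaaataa
Gm29216 had 0 mismatches to mt-Co1 over these 90 bases, and Gm13340 had 3, namely G3A, T9C and T51C, with positions counted from the first base printed and the mt-Co1 base written first. Reads from the mt-Co1 and Gm29216 ends therefore cannot be told apart by sequence, and how reads with several matches were assigned is not given in the sources used here. Of the counts of the mt-Co1 and Gm29216 pair, mt-Co1 held 51.5 to 52.3% in the 8 libraries, an even division of the pair. Against Gm13340, mt-Co1 held 71.1 to 75.8%.

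Near-even divisions were also found for most copies in a block of chromosome 1 (chr1:24611535-24616197, minus strand) that carries copies of consecutive mitochondrial genes. mt-Co3, another subunit of complex IV, held 47.3% ± 0.497 of the counts of the pair with its copy Gm28437. mt-Co2 held 50.7% ± 0.241 with Gm28661, and mt-Atp6, a subunit of the proton channel of ATP synthase, held 51.5% ± 0.373 with Gm10925. All 3 of these copies match their gene at every base of the alignment. The small SDs show that these ratios were nearly constant over libraries whose mitochondrial content differed. Copies on chromosome 2 differ at more bases, and there the mitochondrial gene took the larger part, as for mt-Co2 with 70.9% of the pair with Gm13341 (95.9% alike) and mt-Nd2 with 83.3% of the pair with Gm13339 (96.7% alike). The exceptions on chromosome 1 were Gm28439, identical to mt-Nd4 over 876 bases, against which mt-Nd4 held 97.3%, and Gm10222, identical to mt-Nd4l over 294 bases, against which mt-Nd4l held 40.7% ± 2.57. In all, 11 nuclear features on chromosomes 1, 2 and 13 that are at least 95% alike to a mitochondrial mRNA took 15.8% ± 0.743 of the counts. Values for mitochondrial genes are therefore given as deposited and, where stated, with these copies added.

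Mitochondrially encoded features, namely the 13 mRNAs, 2 rRNAs and 22 tRNAs, held 27.5% ± 3.08 of the counts (n = 8). The share ranged from 22.9% in sham 8 (exact 95% binomial interval 22.9 to 23%) through a median of 26.7% to 32.4% in sham 5. Sham 5 and sham 7 were above the other 6 libraries and sham 8 was below them, and intervals of this width cover counting error only. With the nuclear copies the share was 43.3% ± 3.64, from 37.2% in sham 8 to 48.7% in sham 5. Sham 8 and sham 5 lay at the ends of the range on both counts.

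Among the mRNAs with copies added, those of complex IV led: mt-Co1 held 9.79% ± 0.562, mt-Co3 7.53% ± 0.827 and mt-Co2 6.03% ± 0.373 of the counts. mt-Cytb, the only complex III subunit encoded in mitochondria, followed at 3.70% and mt-Atp6 at 3.64%. Subunits of complex I, the entry point for electrons from NADH, were lower and widely spread. mt-Nd4 held 2.49%, mt-Nd1 2.14%, mt-Nd2 1.81%, mt-Nd3 1.19%, mt-Nd6 0.384%, mt-Nd5 0.258% and mt-Nd4l 0.0443%. mt-Nd6 is the only mRNA of the light strand. mt-Nd4l and mt-Atp8, at 0.0265%, lie upstream of and overlap mt-Nd4 and mt-Atp6 on the same transcripts. A 3′ tag of such a transcript would fall in the downstream gene, and the part of this in their low counts was not tested. The rRNA mt-Rnr2 held 1.09% ± 0.228 and mt-Rnr1 0.391% ± 0.0723, and the tRNA features with the most counts were mt-Td (0.726%) and mt-Tq (0.572%).

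Counts were concentrated in few genes. The highest-ranked 7 to 9 genes held 25% of a library, 26 (sham 5 and sham 7) to 51 (sham 8) held 50%, with a median of 33.5, and 2908 to 3496 held 90% (plot of cumulative share by rank). Sham 8 lay apart, since the next highest library needed 37 genes for 50%. When mitochondrial features and their copies were removed, 343 (sham 1) to 402 genes (sham 5) were needed for 50%, and sham 8, at 358, was inside the range of the others. By level, 17 genes at a mean of 10000 CPM or more held 40.5% ± 2.56 of the counts, 77 at 1000 CPM or more held 58.2%, 854 at 100 CPM or more held 77.7%, and 7274 at 10 CPM or more held 96.8%.

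**Figure D1:**
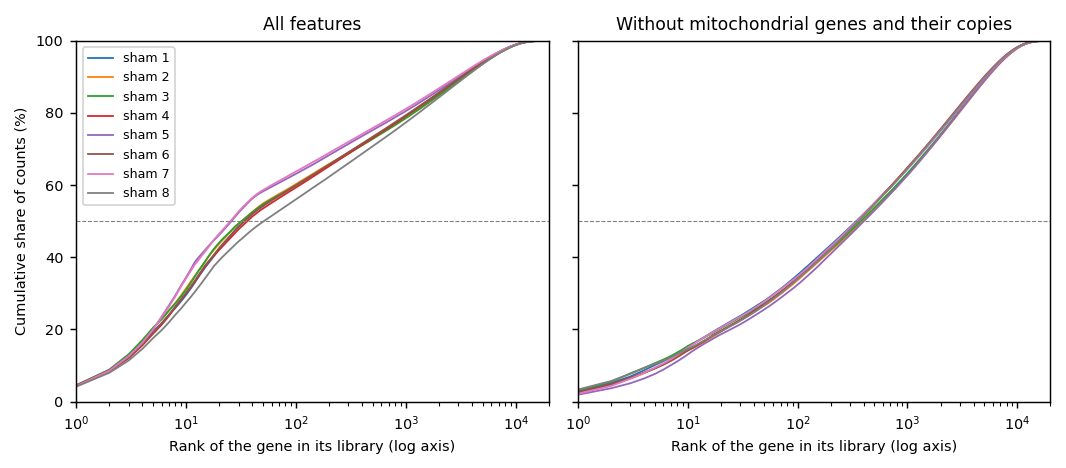
Cumulative share of a library's counts (%) against the rank of the gene in that library (log axis), with 1 line for each of the 8 sham libraries and a dashed line at 50%. With all features (left) the lines cross 50% at 26 to 51 genes, and without mitochondrial genes and their nuclear copies (right) at 343 to 402.

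The nuclear gene with the most counts was Mb, which encodes the oxygen-binding protein myoglobin, at 14056 ± 2772 CPM, rank 14 of all features. It ranged from 10338 CPM in sham 5, with a median of 13561 CPM, to 19267 CPM in sham 8. It was followed by Myl2, the ventricular regulatory myosin light chain (12648 ± 1267 CPM), Myh6, the fast alpha myosin heavy chain (9434 ± 1186 CPM), and Gm42418, annotated as a long non-coding RNA (8077 ± 5169 CPM). Tnni3, the cardiac troponin I that holds back contraction at low calcium (7658 ± 1314 CPM), cardiac alpha actin Actc1 (6241 ± 1203 CPM) and the calcium pump Atp2a2 (6142 ± 663 CPM) came next. The 20 features with the largest share were 9 mitochondrial genes, 6 of their nuclear copies, and Mb, Myl2, Myh6, Gm42418 and Tnni3.

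Genes were then grouped by function, each in 1 group only (plot of counts by group). Protein-coding genes in none of the function groups held 20.7% ± 1.11 of the counts, led by Bsg, a chaperone of lactate transporters (869 ± 127 CPM), Ndrg2 (808 ± 63.3 CPM) and the lysosomal protease Ctsd (733 ± 131 CPM). Features annotated as pseudogenes held 19.2% ± 0.370. Of 991 pseudogenes with at least 40 counts, 775 matched a gene at 95% identity or more, and moving their counts to that gene's group left 0.469% ± 0.0596 in pseudogenes. The function groups together held 58.3% ± 1.26 as deposited and 76.9% ± 1.24 after the move. Long non-coding RNA genes held 1.42% ± 0.548, from 0.869% in sham 8 to 2.48% in sham 3, and Gm42418 alone took 0.803% ± 0.524.

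**Figure D2:**
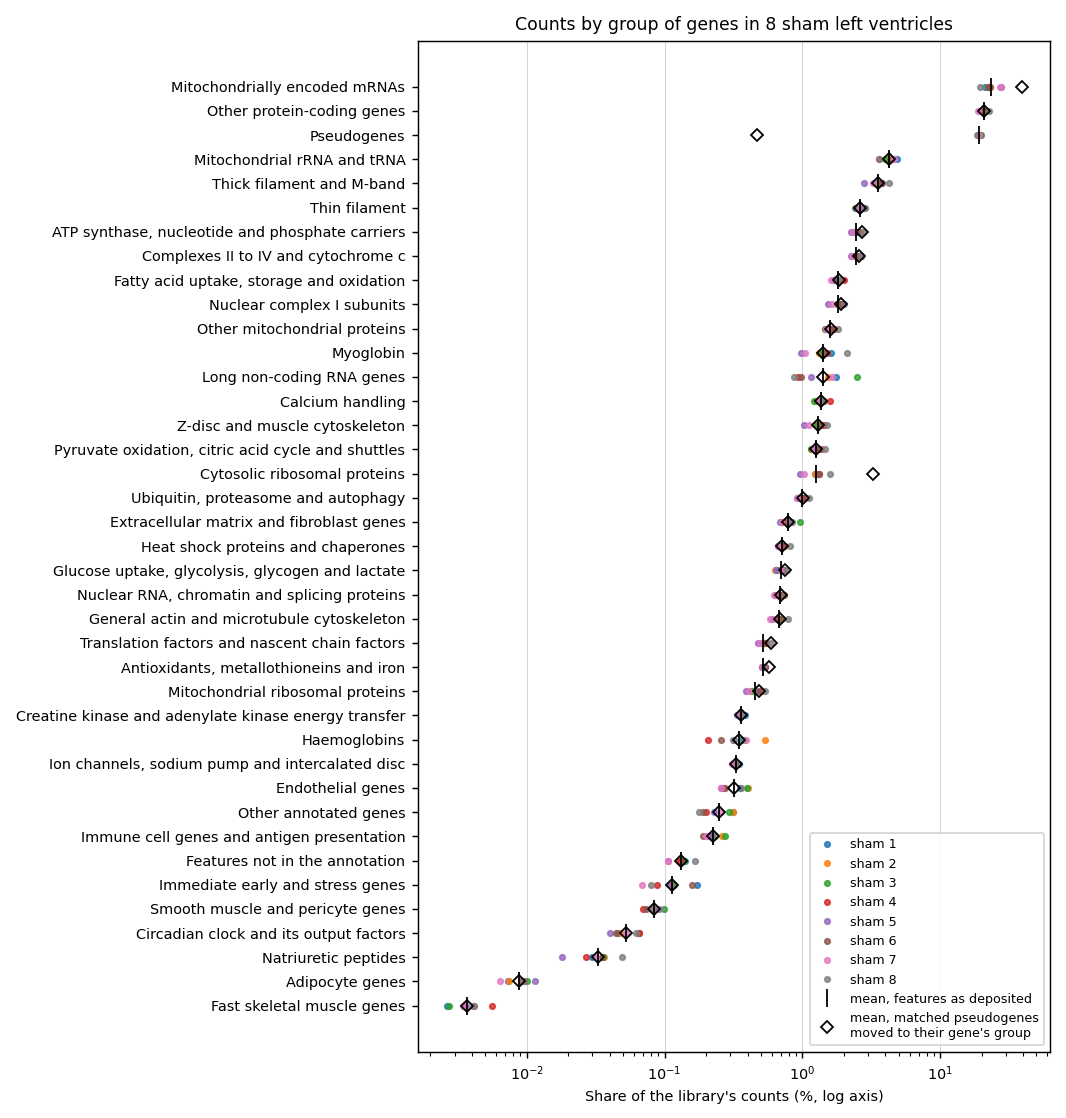
Share of a library's counts (%, log axis) in each group of genes, with 1 point per sham library, a vertical tick at the mean and an open diamond at the mean after matched pseudogenes were moved to their gene's group. Mitochondrially encoded mRNAs stand at 23.3% as deposited and 39% with copies, and pseudogenes at 19.2% and 0.469%.

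Sarcomere genes (thick filament, thin filament and Z-disc) held 7.49% ± 0.701 of the counts, from 6.29% to 8.56%. As a share of what remained without mitochondrial features and copies, they held 13.2% ± 0.570. The thick filament and M-band group held 3.57% ± 0.427, with Myl2, Myh6 and the essential light chain Myl3 (5609.6 ± 568 CPM) in the lead and the slow beta heavy chain Myh7 at 2933 ± 375 CPM. The thin filament group held 2.64% ± 0.166, led by Tnni3, Actc1 and tropomyosin Tpm1 (6049 ± 608 CPM). Troponin T Tnnt2 stood at 3719.6 ± 512 CPM and troponin C Tnnc1 at 1723 ± 211 CPM, so the 3 cardiac troponin transcripts differed in level, in the order Tnni3, Tnnt2, Tnnc1 in every library. Z-disc and muscle cytoskeleton genes held 1.29% ± 0.163, led by the titin cap Tcap (3107 ± 694 CPM), desmin Des (1487 ± 426 CPM) and the muscle LIM protein Csrp3 (1228 ± 93.9 CPM). Ttn, which encodes the giant spring protein titin, was at 1219 ± 135 CPM, counted once per transcript end.

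Nuclear genes of oxidative phosphorylation held 6.72% ± 0.490 of the counts, from 6.06% to 7.44%, close to the sarcomere's range. ATP synthase with the adenine nucleotide and phosphate carriers held 2.47% ± 0.170, led by the ADP/ATP exchanger Slc25a4 (5678 ± 346 CPM), the catalytic beta subunit Atp5b (3161 ± 242 CPM) and the c-ring subunit Atp5g3 (2343 ± 91.7 CPM). Complexes II to IV with cytochrome c held 2.45% ± 0.172, led by Cox4i1 (2085 ± 232 CPM), Cox6a2 (1989.6 ± 344 CPM) and Ndufa4 (1521 ± 138 CPM), which is now counted with complex IV. The 36 nuclear complex I subunits held 1.81% ± 0.161, led by Ndufb9 (995 ± 88.4 CPM), Ndufa13 (959 ± 98.4 CPM) and Ndufa5 (877 ± 122 CPM).

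Fatty acids are the main fuel of the adult heart. Genes of fatty acid uptake, storage and oxidation held 1.81% ± 0.130 of the counts, led by lipoprotein lipase Lpl, which frees fatty acids from circulating lipoproteins (3428 ± 312 CPM), the cytosolic fatty acid carrier Fabp3 (2967 ± 349 CPM) and the beta-oxidation enzyme Ech1 (1122 ± 161 CPM). Pyruvate oxidation, the citric acid cycle and shuttles held 1.27% ± 0.104, led by Idh2 (1287 ± 158 CPM), Mdh2 (1259 ± 67.1 CPM) and Mdh1 (1239 ± 231 CPM). Glucose uptake, glycolysis, glycogen and lactate genes held 0.696% ± 0.0451, led by Aldoa (1078 ± 148 CPM), Eno3 (954 ± 119 CPM) and Ldhb (824 ± 134 CPM). Fatty acid genes exceeded glucose genes in share in all 8 libraries. Creatine and adenylate kinases, which carry high-energy phosphate from mitochondria to myofibrils, held 0.360% ± 0.0152, led by mitochondrial Ckmt2 (1743 ± 129 CPM) and cytosolic Ckm (1465 ± 146 CPM).

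For genes with a muscle and a general isoform, the form of heart and muscle held most of the counts in each of 11 pairs, on the mean of the libraries. Slc25a4 held 97.9% ± 0.285 of the counts of Slc25a4 and Slc25a5, the enolase Eno3 98.1% ± 0.382 against Eno1, the creatine kinase Ckm 98.3% ± 0.425 against Ckb, and the phosphoglycerate mutase Pgam2 97.9% ± 0.891 against Pgam1. Of the complex IV subunits with isoforms, Cox6a2 held 95.6% ± 0.901 and Cox8b 90.4% ± 1.75, while Cox7a1 held 62.3% ± 3.58. The general forms Cox7a2 (827 ± 51.1 CPM) and Ldha (389 ± 18.9 CPM) thus kept a sizeable part of their pairs, and Ldhb, the lactate dehydrogenase subunit of oxidative tissue, held 67.6% ± 3.05. The muscle elongation factor Eef1a2 held 65.2% ± 7.64 against Eef1a1, from 51.5 to 75.4%. The muscle ribosomal protein Rpl3l held 91.1% ± 1.92 against Rpl3, a value that fell to 59.7% when 5 pseudogenes like Rpl3 were added to it. In a pair added after the values were seen, Myh6 held 76.3% ± 1.13 of the counts of Myh6 and Myh7, whose transcript ends are 98.1% alike over 424 bases, and how reads matching both were assigned is not known.

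Calcium handling genes held 1.37% ± 0.110 of the counts, led by Atp2a2 (also called SERCA2, 6142 ± 663 CPM), its inhibitor phospholamban Pln (3919 ± 661 CPM) and the calcium-binding Hrc (524 ± 39.8 CPM). The release channel Ryr2 stood at 442 ± 66.6 CPM and the store protein Casq2 at 458 ± 47.1 CPM. The skeletal pump Atp2a1 was at 0.243 CPM, under the 1.20 CPM that 3 counts make in an average library. Ion channels, the sodium pump and intercalated disc genes held 0.329% ± 0.0118, among them the adhesion protein Cdh2 (253 ± 12.6 CPM). Natriuretic peptides held 0.0329% ± 0.00887, most of it from Nppa (219 ± 73.7 CPM) and Nppb (108 ± 24.6 CPM).

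Cytosolic ribosomal protein genes held 1.25% ± 0.189 as deposited and 3.26% ± 0.475 after 433 matched pseudogenes were added, the largest relative gain of a nuclear group. Rplp1 (698 ± 75.8 CPM), Rplp0 (558 ± 72.8 CPM) and Rpl26 (442 ± 122 CPM) led. Mitochondrial ribosomal proteins held 0.454% ± 0.0529. The ubiquitin, proteasome and autophagy group held 0.987% ± 0.0665, heat shock proteins and chaperones 0.706% ± 0.0525, led by the desmin chaperone Cryab (1506 ± 188 CPM), and antioxidant, metallothionein and iron genes 0.521% ± 0.0111, led by ferritin Fth1 (1714 ± 104 CPM). The last of these varied least over libraries in relative terms among the groups above 0.1%, with a CV of 2.12% apart from pseudogenes at 1.92%.

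Genes of the matrix, endothelial, smooth muscle and immune groups together held 1.42% ± 0.176 of the counts. These are groups of genes, and counts that cardiomyocytes add to them are included. Fewer cells of a type and less RNA per cell cannot be told apart in such a library. Matrix and fibroblast genes held 0.789% ± 0.0949, led by Cst3 (816 ± 80.0 CPM), the actin-severing Gsn (769.9 ± 125 CPM) and the proteoglycan Dcn (579 ± 98.7 CPM). Endothelial genes held 0.320% ± 0.0626, led by Cavin1, the hypoxia-responsive factor Epas1 and the water channel Aqp1. Immune and antigen presentation genes held 0.225% ± 0.0299, led by B2m (325 ± 50.6 CPM) and the macrophage lysozyme Lyz2 (173 ± 22.5 CPM), and smooth muscle and pericyte genes 0.0833% ± 0.00933, led by Rgs5 (212 ± 44.2 CPM). Haemoglobin transcripts, which come with red cells, held 0.345% ± 0.0982.

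Markers of ventricular muscle were high, as the label of the tissue says. The summed level of 10 ventricular markers ranged from 56664 CPM in sham 5, with a median of 66927 CPM, to 72305 CPM in sham 8. The sum of 9 atrial markers ranged from 240.0 CPM in sham 5, with a median of 365 CPM, to 733 CPM in sham 8. Its largest member in every library was Nppa, which ventricles also make and which was lowest in sham 5 (260 counts). Myl7, Myl4 and Sln were lowest in sham 7 instead. Endothelial markers ranged in sum from 1151 CPM in sham 5, with a median of 1339 CPM, to 2028 CPM in sham 2. Most of this sum came from Fabp4 in every library, at 1624 counts or more, against at most 344 for Pecam1 and 336 for Cdh5. Fibroblast markers summed to 1987 to 3242 CPM, smooth muscle and pericyte markers to 462 to 656 CPM, and macrophage markers to 313 to 458 CPM. Lymphocyte and neutrophil markers summed to at most 3.47 and 8.81 CPM, with 9 of 10 and 6 of 9 members at or under 3 counts in every library, and Cd8a and Ly6g at 0. Of the organ markers, Alb (liver), Sftpa1 and Cldn18 (lung) and Rag2, Themis and Dntt (thymus) had 0 counts in all 8 libraries. These lists summed to 17.6 to 25 CPM for liver, 227 to 372 CPM for lung and 10.4 to 31.3 CPM for thymus, nearly all of it from Trf (16.9 to 23.3 CPM), Hopx (227 to 372 CPM), a regulator also found in heart muscle, and Satb1 (9.40 to 30.9 CPM). Epicardial markers summed to 5.97 to 15.7 CPM and Schwann cell markers to at most 68.1 CPM. Fast skeletal muscle markers summed to 25.4 CPM in sham 4 and to at most 6.95 CPM elsewhere, with Tnni2 and Mylpf in the lead at 6.72 and 6.34 CPM and Myh4 at 0 throughout.

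To ask which genes were steady and which variable, each gene's counts were set against the counting error expected at equal level in all 8 hearts (chi-square test of homogeneity, Benjamini-Hochberg adjustment over all genes tested, threshold 0.05). Of 9714 genes with an expected count of at least 10 in every library, 4537 (46.7%) varied beyond counting error. The biological coefficient of variation (BCV), the SD left after counting error is taken off and divided by the mean, had a median of 14.7% ± 0.655 (jackknife SE over libraries) with quartiles of 8.09 and 21.9%. For 1350 genes (13.9%) the spread was no larger than counting error, and for 58 the BCV was over 50%. Each library is a separate animal, and technical and biological spread between libraries are both in this value.

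The share of genes called followed the level. Among 2437 genes at 5 to 10 CPM, 27.2% varied beyond counting error, whereas the figure was 39.1% at 10 to 30 CPM, 63.8% at 30 to 100 CPM, 92.7% at 100 to 1000 CPM and 77 of 77 at 1000 CPM or more. The median BCV did not follow in that way, with 19% in the lowest class and 13.8% in the highest, while the median counting error fell from 23.3% to 1.14%. A gene at a few CPM that did not pass the test could therefore vary as much as one at 1000 CPM that did. The lists below are set against the share over all genes tested, which is not matched for level except where stated.

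**Figure D3:**
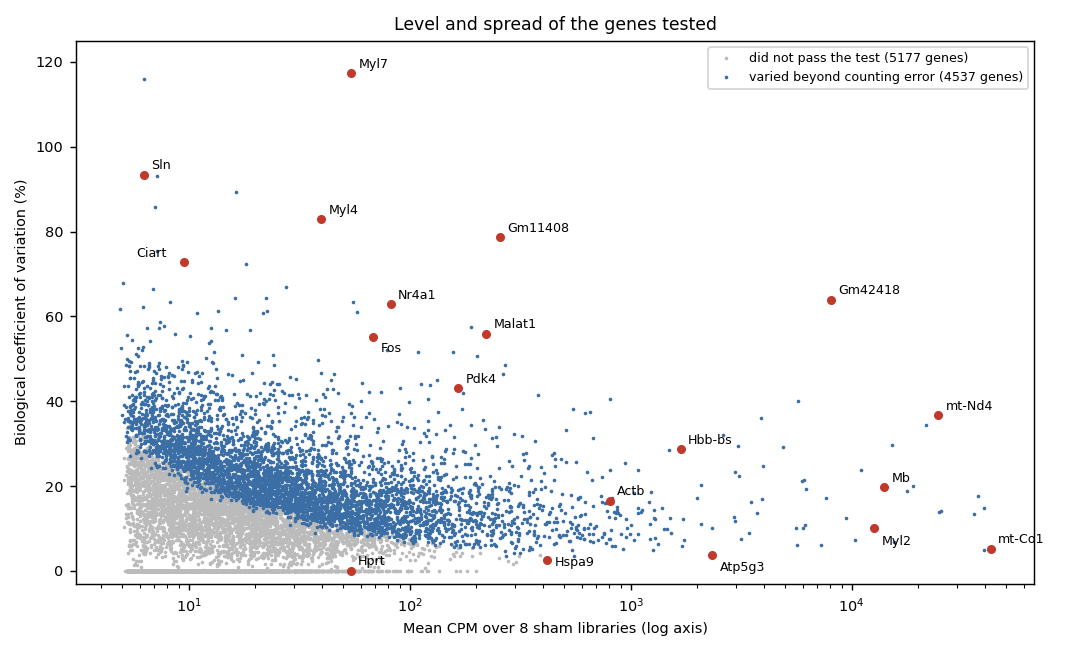
Biological coefficient of variation (%) against mean CPM over the 8 sham libraries (log axis), with 1 point per gene tested, blue for the 4537 genes that varied beyond counting error, grey for the rest and red for named genes. Myl7 is the highest at 117%, and Gm42418 at 64% stands above the other genes of its level.

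Among genes at 100 CPM or more, the 10 with the smallest total CV are given as a description. Atp5g3 ranged from 2201 CPM in sham 2, with a median of 2368 CPM, to 2457 CPM in sham 7, a total CV of 3.91%. The mitochondrial chaperone Hspa9 (406 to 453 CPM), the complex IV assembly factor Cox14 (116 to 129 CPM), the inner membrane protein Ghitm (284 to 321 CPM) and the citric acid cycle subunit Idh3g (288 to 320.2 CPM) had total CVs of 3.94, 4.01, 4.03 and 4.18%. Among the rest were the ribosomal protein gene Rps14, the tumour protein Tpt1, the non-coding 1700020I14Rik and the pseudogene Rps16-ps2. Rps16-ps2 was the steadiest, at 114 to 124 CPM with a CV of 2.56%, and is identical to Rps16 over 441 bases. Of the 10, 2 varied beyond counting error, namely Atp5g3 with a BCV of 3.69% ± 1.23 (jackknife SE) and Tpt1 with 3.41% ± 0.917, both at a level high enough to resolve a spread of this size.

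Of genes in common use as PCR references, 12 of 18 varied beyond counting error, against 46.7% of all genes tested, and their median BCV was 13.4% (plot of reference genes). Hprt, a purine salvage enzyme, ranged from 50.7 CPM in sham 3, with a median of 53.7 CPM, to 59.8 CPM in sham 5. This spread was no larger than counting error, and the same held for the TATA-binding protein Tbp, which at 6.22 ± 1.27 CPM was too low for its test to resolve a spread of that size. Cdkn1b, a cyclin-dependent kinase inhibitor that was among the PCR references of the study, ranged from 23 CPM in sham 3, with a median of 28.3 CPM, to 34 CPM in sham 6. It did not pass the test, with a BCV of 4.47% ± 6.44 (jackknife SE). Ywhaz (7.54% ± 5.83), Polr2a (6.50% ± 9.93) and Ppia (13.1% ± 8.37) did not pass either, and Ppia has 16 near-identical features. Rpl32 (7.47% ± 2.30) varied with a small spread. Gapdh (13.7% ± 6.01, or 7.86% without sham 2), Actb (16.6% ± 2.88), Sdha (18% ± 3.23), Pgk1 (19.1% ± 4.35) and the transferrin receptor Tfrc (22.8% ± 7.22) varied more, and Actb was highest in sham 2 at 1003 CPM and lowest in sham 5 at 659 CPM. Reference genes of high level pass this test at a smaller spread than those of low level.

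**Figure D4:**
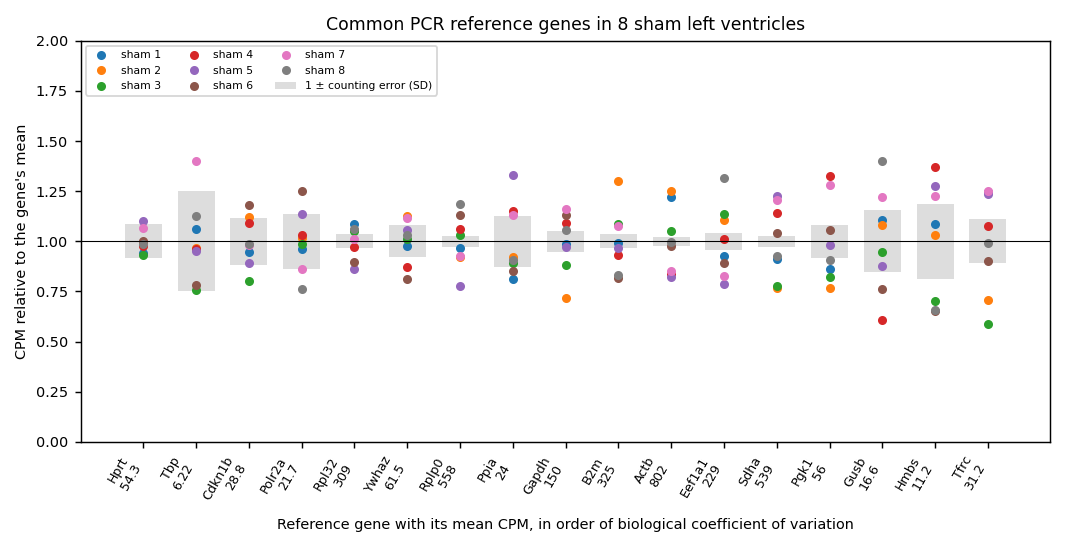
CPM relative to the gene's mean for 17 common PCR reference genes, with 1 point per sham library and a grey bar of 1 ± the counting error (SD), in order of BCV, with the mean CPM under each symbol. Points of Hprt (50.7 to 59.8 CPM) stay near the bar, and those of Tfrc (18.3 to 39 CPM) reach well outside it.

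Abundant nuclear genes of the heart muscle were spread around the median of all genes. BCVs of Slc25a4 (6.03% ± 1.41), Mdh2 (5.03% ± 1.07), Csrp3 (7.43% ± 1.43), Atp5b (7.57% ± 1.73) and Lpl (9.04% ± 2.06) were under the median of all genes tested. Atp2a2 (10.8% ± 2.57) was also under it, as was Myl2, which was lowest in sham 5 at 9721 CPM and had a BCV of 3.72% over the other 7. Mb (19.7% ± 6.04), Actc1 (19.3% ± 4.83), Tcap (22.3% ± 6.53) and Des (28.6% ± 8.93) were above it. Mb and Des were lowest in sham 5, at 10338 and 919.5 CPM, and highest in sham 8, at 19267 and 2305 CPM, while Actc1 ran the other way, with 4659.6 CPM in sham 8 and 8334 CPM in sham 7. Sarcomere transcripts therefore did not move as 1 block over these hearts. Of the thick filament genes 14 of 14 varied, of the thin filament 9 of 11 and of the Z-disc group 29 of 32, at median BCVs of 12.6, 13.1 and 15.3%. Over all genes tested 46.7% varied, and at 100 to 1000 CPM, where many of these genes lie, 92.7% did.

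The mitochondrial mRNAs differed from one another in spread. mt-Co1 had a BCV of 5.20% ± 2.28, or 2.92% without sham 8, and ranged from 37999.8 CPM in sham 8, with a median of 43037 CPM, to 45237 CPM in sham 7. mt-Nd4 had 36.8% ± 5.81 and ranged from 15516 CPM in sham 8, with a median of 21728 CPM, to 38783 CPM in sham 7. For mt-Nd1 it was 34.5% ± 6.78, and for the overlapping upstream genes mt-Nd4l and mt-Atp8 57.6% ± 6.94 and 48.5% ± 7.19. In sham 5 and sham 7 all 6 of mt-Nd1, mt-Nd2, mt-Nd4, mt-Nd4l, mt-Nd5 and mt-Nd6 were above every other library. The same 2 libraries were the highest for mt-Nd3, mt-Cytb, mt-Atp6 and mt-Co2, at BCVs of 14% (mt-Co2) to 21.2% (mt-Nd3). This was not so for mt-Co1, for which sham 5 was the sixth highest at 42463 CPM, nor for mt-Co3, for which sham 2 (39783 CPM) was above sham 5 (38854 CPM). All of these mRNAs but mt-Nd6 are cut from the same heavy-strand precursor. Of the nuclear complex I genes 36 of 36 varied, against 46.7% of all genes and 92.7% of those at 100 to 1000 CPM, at a median BCV of 10.9%, and their summed share was lowest in sham 5 (1.53%) and sham 7 (1.63%), the libraries in which the mitochondrial ones were highest, both being parts of 1 total. Total counts were largest in these 2 libraries (4257919 in sham 7 and 3058589 in sham 5) and the part of depth in the result was not tested.

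The 100 genes with the highest BCV at 10 CPM or more comprised 59 protein-coding genes, 31 pseudogenes and 5 mitochondrially encoded features, with 5 of other kinds. Pseudogenes were 720 of the 9714 genes tested at all levels. The library in which each was highest was spread over all 8, from 9 genes in sham 4 to 18 in sham 3, while 30 were lowest in sham 8. The values of these genes chose them, so they are given as a description. The 15 highest were Myl7, Gm6612, Myl4, Gm11408, Apold1, mt-Ts2, Gm15289, Errfi1, Gm42418, Gm14630, Nr4a1, Gm5844, Prkg2, Btg2 and Gm2962. The 6 pseudogenes among them were like Atp5g1, mt-Nd6, Etfa, Ndufa4, Hsp90aa1 and Uqcrb, in that order, at 92.2 to 98.5% identity. Each was more variable than the gene it resembles, where the pseudogene was chosen for its BCV and the gene was not. Gm14630, for example, had a BCV of 63.3% at 55.4 CPM and Ndufa4 8.95% at 1521 CPM.

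Genes of atrial muscle came first among the protein-coding ones. Myl7, the atrial regulatory myosin light chain, ranged from 3.95 CPM in sham 7, with a median of 32.7 CPM, to 187 CPM in sham 8, a BCV of 117% ± 30.3. It was highest in sham 8 and sham 6 (109 CPM) and lowest in sham 7, sham 1 (6.61 CPM) and sham 3 (7.84 CPM). Myl4, the atrial essential light chain, ranged from 5.79 CPM in sham 7, with a median of 35.8 CPM, to 91.7 CPM in sham 8. Sarcolipin Sln, which inhibits the calcium pump in atria, ranged from 0.527 CPM in sham 7, with a median of 4.05 CPM, to 17.3 CPM in sham 8. Sham 8 was thus highest and sham 7 lowest for all 3. Other atrial markers did not all have this order. Dkk3 (BCV 54.1%) was highest in sham 2 and Gpr22 in sham 4, while Mybphl, at 14 counts or fewer, was highest in sham 8. Of 8 atrial markers tested, 7 varied beyond counting error, against 46.7% of all genes, at a median BCV of 43.8%. Nppa, the atrial natriuretic peptide, which ventricles also make, ranged from 90.3 CPM in sham 5, with a median of 212 CPM, to 349.6 CPM in sham 8. Its order differed from that of Myl7, since sham 3 was the second highest for Nppa. Myl2 held at least 98.6% of the counts of Myl2 and Myl7 in every library.

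Immediate early genes are transcribed within minutes of many kinds of stimulus, and their mRNAs are short-lived. All 13 of the 13 tested varied beyond counting error, against 46.7% of all genes tested, at a median BCV of 40.6%. Among all genes at 30 to 100 CPM 63.8% varied, and among those at 100 to 1000 CPM 92.7% did. Fos, a subunit of the AP-1 factor, ranged from 19.9 CPM in sham 8, with a median of 68.5 CPM, to 131 CPM in sham 6. Egr1, a zinc-finger factor, ranged from 46.4 CPM in sham 8, with a median of 126 CPM, to 199 CPM in sham 1. The MAP kinase phosphatase Dusp1 ranged from 54.5 CPM in sham 8, with a median of 106 CPM, to 218 CPM in sham 1. Sham 1 and sham 6 were the highest and sham 4, sham 7 and sham 8 the lowest for all 3. The nuclear receptor Nr4a1 (29.8 to 178 CPM), the antiproliferative Btg2 (16.9 to 115 CPM), the matricellular Ccn1 (54.9 to 208 CPM), and outside the list the endothelial Apold1 (7.37 to 42.2 CPM) and the EGF receptor inhibitor Errfi1 (9.95 to 52.9 CPM) also had sham 1 and sham 6 as their highest libraries. Not every member had this order, as Junb was highest in sham 6 and then sham 5, and Klf6 in sham 3. The least variable member tested was Klf6 (BCV 25.9% ± 11.4, or 14.8% without sham 3), and Fosb, Egr2, Atf3 and Myc were too low to be tested.

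The molecular clock is a loop in which the factors encoded by Arntl and Clock drive Per, Cry, Nr1d and Dbp family genes through E-box elements, and the products of several of these feed back on Arntl and Clock, so that Arntl and Dbp peak at opposite times of day. All 13 clock genes tested varied beyond counting error, against 46.7% of all genes tested, at a median BCV of 29.7%. Ciart, a repressor of the loop, ranged from 2.43 CPM in sham 5, with a median of 8.50 CPM, to 25.1 CPM in sham 3 and had the highest BCV of the list at 72.8% ± 28.6, or 46.6% without sham 3. The period gene Per1 ranged from 11.5 CPM in sham 2, with a median of 27.1 CPM, to 48.1 CPM in sham 3. The output factor Dbp ranged from 71.2 CPM in sham 5, with a median of 92.6 CPM, to 168 CPM in sham 7. Its relative Tef ranged from 51.8 CPM in sham 5, with a median of 89.9 CPM, to 135 CPM in sham 8. Sham 1, sham 2, sham 5 and sham 6 were the 4 lowest libraries for Dbp, Tef and Hlf (12.1 to 33.2 CPM), and sham 3, sham 4, sham 7 and sham 8 the 4 highest. The repressor Nr1d1 ranged from 18.4 CPM in sham 8, with a median of 44.9 CPM, to 57.7 CPM in sham 5, a different order. Arntl itself was low, with 7.64 CPM in sham 5 and 0.373 CPM in sham 4. Per3 (14.1% ± 5.65), Bhlhe40 (14.4% ± 7.77, or 7.93% without sham 7) and Bhlhe41 (14.5% ± 4.70) were the steadiest members, with BCVs just under the median of all genes tested.

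Promoter stretches of Ciart and Per1 are shown because both varied and their windows held the E-box through which the loop acts. The sequences are from RefSeq on GRCm38.p6, read 5′ to 3′ along the gene. Ciart spans positions -130 to -31 from the transcription start, at chr3:95882259-95882358 on the minus strand, and Per1 positions -180 to -11, at chr11:69098769-69098938 on the plus strand. Capitals mark the E-box CACGTG, which reads the same on both strands, and the D-box form TTATGCAA.
Ciart: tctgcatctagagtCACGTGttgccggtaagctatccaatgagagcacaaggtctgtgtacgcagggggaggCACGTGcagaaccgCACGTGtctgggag
Per1: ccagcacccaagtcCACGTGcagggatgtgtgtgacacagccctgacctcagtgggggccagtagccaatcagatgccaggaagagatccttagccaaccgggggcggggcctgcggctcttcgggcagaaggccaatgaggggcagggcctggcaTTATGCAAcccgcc
The Ciart stretch holds the E-box 3 times, and that of Per1 holds 1 E-box and 1 D-box. In windows of 300 bases around the start, searched on both strands, 5 of 15 clock genes with an entry held CACGTG (Per1, Cry1, Tef, Ciart and Bhlhe41), in 6 of the 20 windows of these 15, against 7.15% of 32851 windows of all genes. The D-box TTATGNAA was in 2 windows (Per1 and Per3), against 3.38%, and the site AGGTCA that the Nr1d and Ror receptors bind in 5 windows (Arntl, Clock, Nfil3, Nr1d2 and Per1), against 16.3%. A match of letters is not evidence of binding.

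Genes that respond to fasting or glucocorticoids varied in 17 of 18 members tested, against 46.7% of all genes, at a median BCV of 29.7%. Pdk4, the kinase that shuts pyruvate out of the citric acid cycle when fatty acids are plentiful, ranged from 48.3 CPM in sham 8, with a median of 188 CPM, to 262 CPM in sham 3. The uncoupling protein Ucp3 (6.26 to 31.4 CPM) and the lipoprotein lipase inhibitor Angptl4 (2.95 to 22.6 CPM) also had their lowest value in sham 8. Each of these 3 is a target of PPAR receptors. Among glucocorticoid targets, Fkbp5 ranged from 5.51 CPM in sham 1, with a median of 10.6 CPM, to 17.2 CPM in sham 3. The zinc-finger factor Zbtb16 ranged from 2.94 CPM in sham 1, with a median of 7.69 CPM, to 16.7 CPM in sham 3. Sham 3 was highest for both and for Tsc22d3 (79.8 to 147 CPM), and sham 1 was lowest for Fkbp5 and Zbtb16. Klf9 was highest in sham 7 (111 CPM) and lowest in sham 8 (23.9 CPM). Ucp2 did not pass the test (8.84 to 13.9 CPM).

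**Figure D5:**
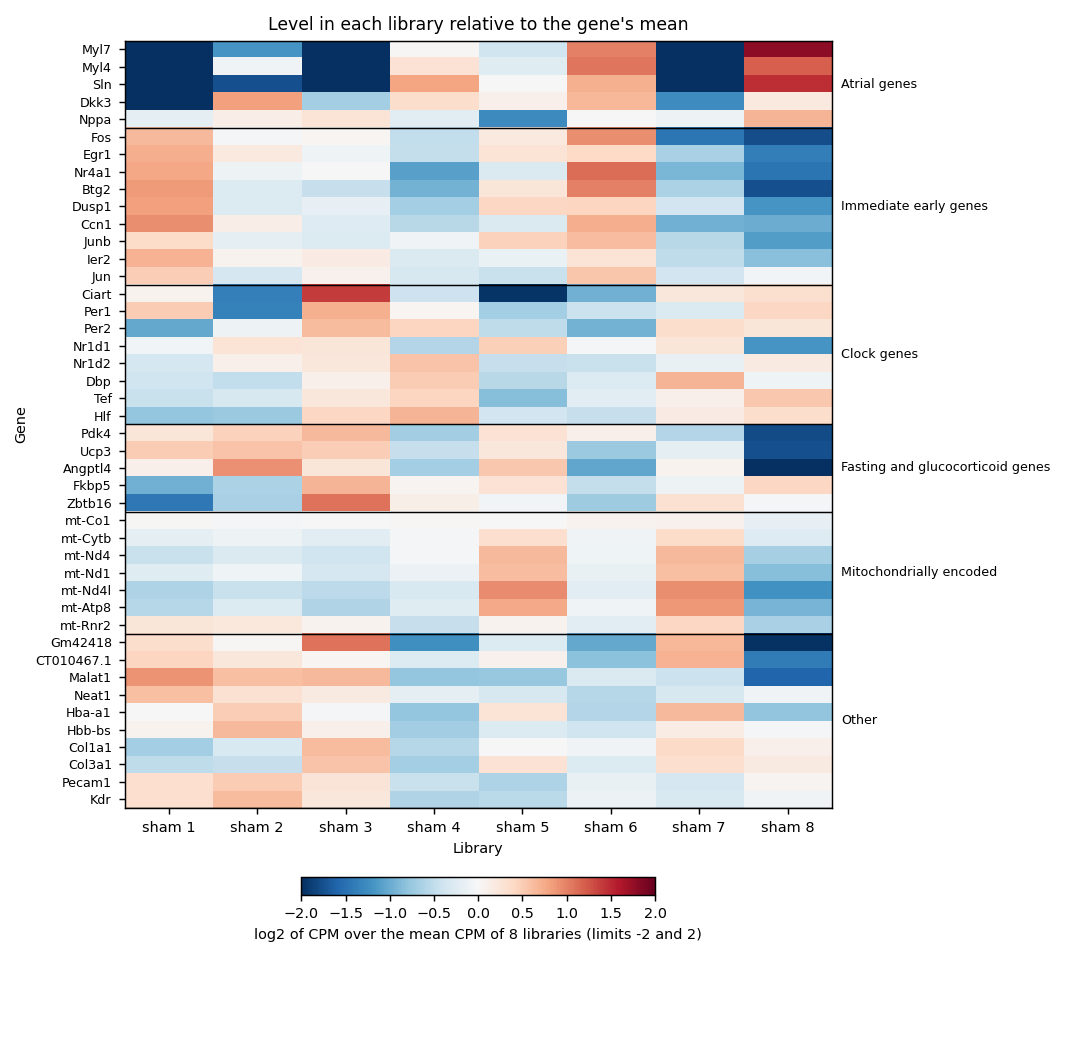
Level of selected genes in each of the 8 sham libraries as log2 of CPM over the gene's mean (red above, blue below, colour limits at a factor of 4 either way), grouped by list. Myl7, Myl4 and Sln are reddest in sham 8, Fos, Egr1 and Dusp1 in sham 1 and sham 6, and mt-Nd4 in sham 5 and sham 7, while mt-Co1 is pale throughout.

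Matrix and wound genes varied among these hearts without an infarct. Of 12 acute phase and wound genes tested, 11 varied, against 46.7% of all genes tested, at a median BCV of 34.1%. Postn, a matricellular protein of activated fibroblasts, ranged from 55.2 CPM in sham 4, with a median of 78.1 CPM, to 154 CPM in sham 3. The collagen gene Col1a1 ranged from 147 CPM in sham 1, with a median of 230.3 CPM, to 367 CPM in sham 3. Col3a1, the chain of a thinner fibril, ranged from 154 CPM in sham 4, with a median of 242 CPM, to 368 CPM in sham 3. Sham 3 was highest for all 3 and for Cthrc1 (3.13 to 17.2 CPM). The inflammatory Il6, Il1b, Ccl2, Saa3 and Hp reached at most 6.63 CPM in any library. Spp1 was at 0.695 CPM in sham 5 and at 11.3 to 28 CPM in the other 7. Of the interferon genes tested, 4 of 11 varied, near that share, at a median BCV of 13%.

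By cell type, 9 of 10 endothelial markers varied at a median BCV of 25.2%, 8 of 9 smooth muscle and pericyte markers at 25.9%, 8 of 10 fibroblast markers at 16.5% and 5 of 10 macrophage markers at 13%. The share over all genes tested was 46.7%, near that of the macrophage markers. Pecam1, an adhesion molecule of endothelial cells, ranged from 64.6 CPM in sham 5, with a median of 96.8 CPM, to 141 CPM in sham 2. The VEGF receptor Kdr ranged from 60.8 CPM in sham 4, with a median of 86.7 CPM, to 143 CPM in sham 2. Sham 1, sham 2 and sham 3 were highest for both and for the fatty acid carrier Fabp4 of capillaries (694 to 1294 CPM). Other members had another order, since Vwf was highest in sham 5, next in sham 3 (36 CPM), Tie1 in sham 2 (26.3 CPM) and sham 5 (22.6 CPM), and Emcn, which did not pass the test, in sham 5 (30.6 CPM). The complement gene C1qa (41.4 to 55.8 CPM) and the receptor Csf1r (14.6 to 26.1 CPM) of macrophages did not pass the test. Vcam1, an adhesion molecule for leukocytes that was chosen after its values were seen, ranged from 17.9 CPM in sham 4, with a median of 155 CPM, to 289.6 CPM in sham 7, with sham 4 below all other libraries.

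Haemoglobin transcripts varied in amount and in composition. The alpha genes Hba-a1 and Hba-a2, which are 99.8% alike at their ends and were summed, ranged from 726 CPM in sham 8 to 1937 CPM in sham 7. The beta genes Hbb-bs and Hbb-bt ranged from 1343 CPM in sham 4 to 3382 CPM in sham 2. The ratio of alpha to beta was 0.337 in sham 8, 0.793 in sham 7 and 0.850 in sham 5, and lay between 0.525 and 0.577 in the other 5. Sham 5 and sham 7 were thus high, and sham 8 low, as for the mitochondrial share, and the part of the mitochondrial share in this ratio was not tested.

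Gm42418 was the most variable of the 20 features with the largest share. It ranged from 2042 CPM in sham 8, with a median of 7438 CPM, to 17199 CPM in sham 3, with sham 7 (12786 CPM) and sham 1 (10294 CPM) also high. The gene lies at chr17:39846958-39848788 on the plus strand, within the span of CT010467.1, annotated as ribosomal RNA on the minus strand at chr17:39846353-39848827. CT010467.1 ranged from 306 CPM in sham 8, with a median of 842 CPM, to 1314 CPM in sham 7. Reads from the 2 strands can be told apart only if the counting used strand, which is not given in the sources used here.

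Relations over the 8 libraries were computed for 12 pairs of genes, on log2 CPM with exact permutation tests over all 40320 pairings (two-sided, adjusted over the 12). Fos and Egr1 rose and fell together, with Pearson's r 0.94 (adjusted exact p 0.00129) and Spearman's rho 0.95 (adjusted exact p 0.00456). The atrial Myl7 and Sln did so with Pearson's r 0.96 (adjusted exact p 0.00129) and Spearman's rho 0.98 (adjusted exact p 0.00456). The collagens Col1a1 and Col3a1 gave Pearson's r 0.93 (adjusted exact p 0.00129) and Spearman's rho 0.95 (adjusted exact p 0.00456). The myosin heavy chains Myh6 and Myh7, whose ends are alike, gave Pearson's r 0.88 (adjusted exact p 0.00603) and Spearman's rho 0.88 (adjusted exact p 0.0217). Without the 2 libraries farthest from the median of the first gene, r was 0.85, 0.92, 0.92 and 0.86, and with 6 libraries left the collagen pair alone of the 4 still passed the adjusted exact test. The labels give no batch in which to repeat these relations.

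The other 8 pairs did not pass, and 7 of them are given here. Arntl and Dbp gave Pearson's r -0.70 (adjusted exact p 0.126) and Spearman's rho -0.81 (adjusted exact p 0.0523) by exact permutation, at Arntl counts as low as 1 in a library. Without sham 4 and sham 5 their r was -0.43. Alpha and beta globin (Hba-a1 and Hbb-bs) gave r = 0.68, C1qa and Lyz2 0.60, Adipoq and Cfd 0.56, and Per1 and Fkbp5 0.35, with adjusted exact permutation p of 0.126, 0.218, 0.219 and 0.461. For Nppa no relation was detected with Nppb (r = -0.05, adjusted exact permutation p 0.905) or with Myl7 (r = 0.13, 0.860). With 8 libraries such tests miss all but strong relations.

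The study inferred ligand and receptor pairs between organs, and some of the receptors it followed were measured in sham LV. Tgfbr2, the type II receptor for TGF-beta, ranged from 18.9 CPM in sham 6, with a median of 26.2 CPM, to 34.6 CPM in sham 2. Ptprs, a receptor-type tyrosine phosphatase that binds proteoglycans, ranged from 29.5 CPM in sham 5, with a median of 35.1 CPM, to 47 CPM in sham 1. Both varied beyond counting error, with BCVs of 15.5% ± 6.44 and 12.4% ± 8.03, the latter 4.33% without sham 1. Gpr37 had at most 1 count in a library, or 0.485 CPM.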

How the data were processed

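MACE-Seq (3′ end sequencing with molecular identifiers in the kit) was carried out by the study on total RNA of snap-frozen LV. The table of raw gene counts was used as deposited by the authors, whose processing notes name bcl2fastq, Bowtie2, HTSeq, DESeq2 and the build mm10. The annotation release, the strand setting and the treatment of reads with several matches are not given in the sources used here. The 8 sham columns were used, and 9 columns of other heart samples were not. The members and gene lists were chosen with earlier results of these data known.

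Of the features, 31521 matched the GRCm38 annotation by identifier or symbol and 126 did not. A further point is that 35 features are merged gene pairs (0.116% ± 0.0185 of the counts), and these were kept as they stand. Counts were scaled by TMM (edgeR 4.0.16, R 4.3.3) and tested with the chi-square test of homogeneity (7 degrees of freedom, SciPy 1.17.1, pandas 2.3.3, NumPy 2.4.6, Python 3.11.15) at an expected count of at least 10. BCV is the square root of the variance of CPM less the mean counting variance, set to 0 where negative, over the mean. Pairs of genes were correlated on log2 CPM with a prior count of 1. Pseudogenes with at least 40 counts were compared with transcripts by BLAST 2.17.0 and moved at 95% identity over at least 100 bases and 50% of their length. Transcript ends were the last 500 bases. Figures were drawn with Matplotlib 3.10.9. The test was checked on simulated counts.

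Genes were named if among the 20 largest shares or the mitochondrial mRNAs, the 3 largest of a group, the 15 highest BCVs at 10 CPM or more, the 10 lowest total CVs at 100 CPM or more, the extremes of a list, or a member of a pair. Genes named beyond this were chosen after their values were seen. Cpt1b, Strit1, Rn18s, Bmp10, Sftpb and Serpina1a are not analysed here, and a few genes that the rule or lists include are not reported here. A p-value of the chi-square test measures departure from counting error over 8 libraries, 1 per animal. A p-value of a gene pair measures a correlation over the same 8. Neither gives the size of the spread between animals. Alternatives were DESeq2 1.42.0 size factors, upper quartile and total count scaling, other filters, thinning, removal of mitochondrial features and leaving out each library. The 2 alternatives on pseudogenes and nuclear copies were added after seeing the data.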

Additional observations from a re-analysis of the deposited data

Results flagged for a closer look

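In each measure examined, a library was marked when its gap to the nearest other library was a large part of the whole range of the 8 (Dixon's criterion at 95%). Chance marks about 1 measure in 20, so about 14.1 of 281 would be marked, and 15 were. The number is close to what chance gives.

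Sham 8 needed 51 genes for 50% of its counts (next 37), had the lowest share in nuclear copies of mitochondrial genes at 14.2% (next 15.4%) and the lowest level of the mt-Co1 copy Gm29216 at 35398 CPM (next 38635 CPM). Saa3, an acute phase protein, was highest there at 6.63 CPM (next 2.24 CPM).

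Sham 4 held more fast skeletal muscle transcript than the rest, with the markers summing to 25.4 CPM (next 6.95 CPM). Tnni2, fast troponin I, was at 6.72 CPM (next 2.78 CPM) and the fast calcium pump Atp2a1 at 1.12 CPM (next 0.461 CPM). The sum is small beside that of the ventricular markers in the same library, 69051 CPM.

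The lowest Myl2 level stood at 9721 CPM in sham 5 (next 12393 CPM), apart from the other 7 libraries. Lysozyme Lyz2 reached 222 CPM in sham 3 (next 177 CPM), the clock factor Clock 30.6 CPM in sham 5 (next 22.8 CPM), the general enolase Eno1 27.4 CPM in sham 7 (next 19.8 CPM), and the factors Atf3 and Myc 6.31 CPM in sham 6 (next 3.66 CPM) and 3.82 CPM in sham 5 (next 1.84 CPM). Sham 3 was the highest library for Ciart at 25.1 CPM (next 11.8 CPM), and for Gm5844, the pseudogene like the chaperone gene Hsp90aa1, at 33.4 CPM (next 16.5 CPM).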

How the results depend on the processing

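Counting the nuclear copies as mitochondrial raised the mitochondrial share from 27.5 to 43.3%. The mean number of genes for 50% of the counts rose to 129.5 without mitochondrial features and to 365 without their copies as well. The function groups held 42.5% without mitochondrial features and 76.9% with matched pseudogenes moved. Genes that varied beyond counting error numbered 2608 of 3565 tested (73.2%) at an expected count of at least 50. They numbered 3352 of 9205 (36.4%) after thinning and 5162 of 23228 (22.2%) with no filter. The number lay between 3352 and 5162 under the other scalings and filters. The share of genes called thus depended on the filter, and the 46.7% used above holds for an expected count of at least 10. The median BCV was 15.4% with total counts alone, 15.5% and 12.8% at an expected count of at least 5 and 50, and 17.5% and 17% by the common and tagwise dispersions of edgeR. The cause of the last 2 was not tested.

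Leaving out each library in turn gave 4004 to 4373 varying genes (41.2 to 45.1% of those tested) and a median BCV of 14.1 to 14.7%. It gave a mitochondrial share of 26.8 to 28.2%, 31.7 to 35.3 genes for 50% of the counts and 58.1 to 58.6% in function groups. Of the 12 gene pairs, 4 passed, and 1 did without the 2 libraries farthest from the median, where 6 libraries remained. With total counts alone 6 passed, and without sham 7 or sham 8 5 did. The correlations given here that changed sign were all of pairs that did not pass. Without the 2 farthest libraries r was -0.277 for Per1 and Fkbp5, -0.0593 for Nppa and Myl7 and -0.0504 for C1qa and Lyz2, and with total counts alone it was 0.0847 for Nppa and Nppb. With each library left out it ran from -0.20 to 0.12 for Nppa and Nppb and from -0.26 to 0.48 for Nppa and Myl7. No paired analysis was possible because only the sham group was analysed and no comparison between groups was made. Depth limits the account of genes under about 10 CPM, of which most could not be told from counting error.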

Other observations

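Sham 1, sham 2 and sham 3, which lay together on the first principal component, shared high levels of some genes outside the lists. These genes were chosen after their values were seen. Malat1, an abundant nuclear non-coding RNA, was at 413, 338 and 347 CPM in them and at 73.7 to 182 CPM in the other 5 libraries. Olfr620, annotated as an olfactory receptor gene, was at 198, 183 and 229 CPM against 74.8 to 111 CPM. The synaptic adhesion gene Nrxn3 was at 44.4, 45.6 and 44.9 CPM against 15.8 to 24.3 CPM. Genes chosen in this way separate the libraries by their selection, and the share of all genes that do so is not given here. The endothelial genes Pecam1, Kdr and Fabp4 had the same 3 libraries on top, but Vwf and Emcn were highest in sham 5. What sets these libraries apart was not tested.

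Cish, a suppressor of cytokine signalling induced by growth hormone, was highest in sham 4 (83.2 CPM) and sham 8 (64.1 CPM) and lowest in sham 2 (25.4 CPM), with a BCV of 44.9% ± 12. It was likewise chosen after its values were seen.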
